A study of Equus caballus with 15 samples.

Results

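The interleukin-6 (IL-6) family was followed in equine macrophages through the genes of 4 of its cytokines (IL6, LIF, IL11 and OSM) and 4 of its receptor chains (IL6R, IL6ST, LIFR and OSMR). They were found by gene symbol among the 16932 protein-coding genes measured. Of the 8 genes named, 7 had a row and 6 were abundant enough to test. LIFR was too low to test, and OSM was not analysed here.

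Cytokines of this family signal through gp130, the receptor chain encoded by IL6ST, which almost every cell carries. What a cell can respond to is set by a partner chain, such as the IL-6 receptor (IL6R), the LIF receptor (LIFR) or the oncostatin M receptor (OSMR). Bound receptors activate JAK kinases and the transcription factor STAT3, and SOCS proteins made in response shut the signal off. Macrophages are a known source of IL-6, which drives the acute phase response and is raised in inflamed joints, while LIF and IL-11 act on stromal, bone and progenitor cells among others.

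The cells were monocyte-derived macrophages grown with M-CSF at 30 ng/ml from blood of 2 geldings, one 3 and the other 5 years old. Which library came from which gelding is not in the labels. Untreated macrophages received no cytokine besides M-CSF, and IL-1ß macrophages received IL-1ß at 10 ng/ml for 24 h to model activation in osteoarthritis. In the remaining 3 conditions the same dose of IL-1ß was given together with an orthobiologic therapy (OT) at 25% of the medium. The OTs were conditioned medium of bone marrow mesenchymal stromal cells (MSC-CM), platelet rich plasma that had been lysed (PRP lysate), and serum of blood incubated to raise its own antagonists of IL-1, named autologous conditioned serum (ACS). Every condition had 3 libraries. All OTs were prepared from 3 further horses of 2 to 5 years, which had given no macrophages. Libraries of different OTs thus share donors of the OT, which the tests between OTs leave out, and the labels do not say which horse a library number stands for. The IL-1ß and the untreated libraries are described by the authors as technical replicates, so p-values here measure only the spread between these libraries. After the 24 h of treatment the cells were washed, and the methods add another 24 h of culture that the sample descriptions do not mention.

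Libraries held 28410733 to 47894066 reads on genes, and a single read was worth 0.0209 to 0.0352 CPM, the count scaled to a common library total. IL-1ß replicate 3 and PRP lysate replicate 1 stood apart from the other libraries over all genes, at -103 and -51.7 on a first principal component with 55.4% of the variance, where MSC-CM replicate 1 lay at -20.7 and the others between -8.15 and 26.6. Values without both are therefore given for the results that moved most. Of 8 macrophage markers, CD68, MRC1 and CSF1R were abundant, but CD14 and ITGAM were low (3.46 and 2.22 CPM with IL-1ß). The 5 T cell markers summed to between 494 and 1441 CPM, so RNA of T cell marker genes was also present. In bulk RNA, fewer cells of a type and less RNA per cell cannot be told apart.

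Of the family, IL6 alone was called changed. It was lower with PRP lysate and with ACS than with IL-1ß alone, and it was not called changed between IL-1ß and untreated macrophages. LIF leaned the other way in both of these OTs, without passing the test. The receptor chains IL6R, IL6ST and OSMR did not pass in any of the 10 comparisons. A gene was called changed at a Benjamini-Hochberg adjusted p-value (limma, over 11628 genes averaging 1 CPM or more) of at most 0.05 and at least a 2-fold difference. Log2 fold changes are differences of mean log2(CPM + 1), which understate the change of genes with few CPM.

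**Figure D1:**
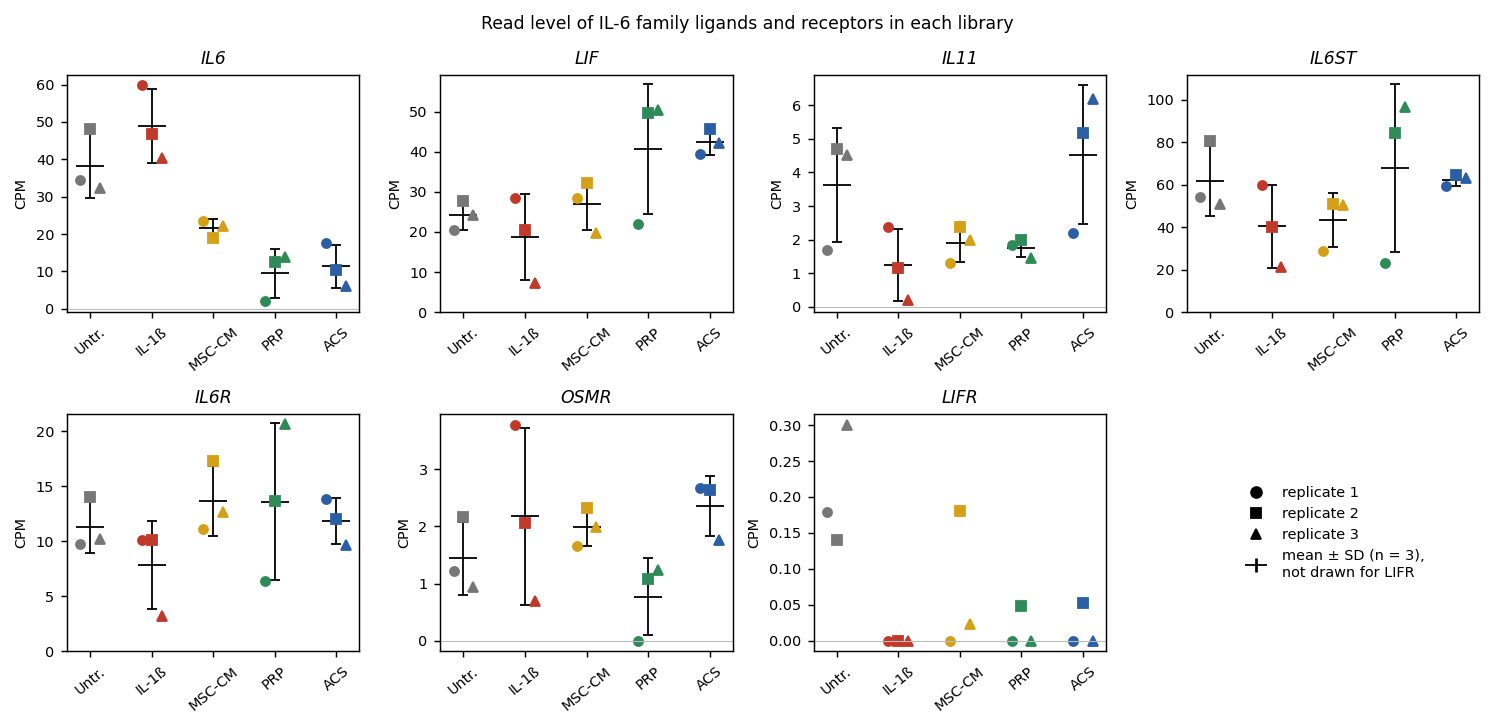
CPM of the 7 IL-6 family genes in each of the 15 libraries (y axes, linear, each gene on its own scale) by condition (x axes). Marker shapes are replicates, and horizontal ticks with bars are the mean ± SD of 3 libraries, left out for LIFR, which was at 0 in 8 libraries. IL6 falls from 40.4 to 59.8 CPM with IL-1ß to 1.96 to 13.9 CPM with PRP lysate, and IL-1ß replicate 3 is the lowest of its condition for each tested gene.

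IL6 (ENSECAG00000016482, EquCab3.0 chromosome 4, 54607176 to 54611578) encodes the cytokine that names the family. Untreated macrophages held 34.4, 48.2 and 32.3 CPM in replicates 1 to 3, and IL-1ß macrophages held 59.8, 46.7 and 40.4 CPM. These groups overlapped, and the difference of 0.35 on the log2 scale had a 95% interval from -0.75 to 1.45 (limma, Benjamini-Hochberg adjusted p = 0.742). A 2-fold rise with IL-1ß thus lay inside the interval.

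With PRP lysate IL6 stood at 1.96, 12.5 and 13.9 CPM, below every IL-1ß library. The mean of 9.45 ± 6.53 CPM (SD, n = 3) compared with 49.0 ± 9.91 CPM in IL-1ß macrophages. The log2 fold change was -2.55 (SE 0.508, 95% interval -3.65 to -1.46, limma adjusted p = 0.0102). PRP lysate replicate 1, the lowest, was one of the libraries that stood apart. Without it and IL-1ß replicate 3, IL6 was still lower with PRP lysate, by a log2 fold change of -1.93 (limma adjusted p = 0.00282). The call held in all 6 fits that left out a single library, in which the log2 fold change ran from -2.97 to -1.80. It was kept in 15 of 16 alternative fits (adjusted p from 6.2e-05 to 0.220, limma, edgeR or DESeq2) and lost when only the PRP lysate and IL-1ß libraries were fitted (limma adjusted p = 0.220).

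ACS gave IL6 levels of 17.5, 10.4 and 6.01 CPM, again below every IL-1ß library. Their mean of 11.3 ± 5.82 CPM (SD, n = 3) was lower than that of IL-1ß macrophages by a log2 fold change of -2.12 (SE 0.508, 95% interval -3.21 to -1.02, limma adjusted p = 0.0376). This call was less firm than that for PRP lysate. It was made in 7 of 14 alternative fits, the lowest adjusted p-value being 0.000811 with DESeq2, and was lost in 4 of the 6 that left out 1 library, namely without IL-1ß replicate 2 (limma adjusted p = 0.0968), IL-1ß replicate 3 (0.0628), ACS replicate 2 (0.135) or ACS replicate 3 (0.178). Without IL-1ß replicate 3 and PRP lysate replicate 1 together the log2 fold change was -2.24 (limma adjusted p = 0.00115).

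MSC-CM libraries held IL6 at 23.6, 19.0 and 22.2 CPM. All lay below the IL-1ß libraries and above the PRP lysate and ACS libraries. Against IL-1ß the log2 fold change was -1.13 (95% interval -2.23 to -0.03, limma adjusted p = 0.705), which failed the adjustment, and it was -1.26 without both libraries that stood apart (limma adjusted p = 0.637). Ordered by mean, IL6 was highest with IL-1ß, then untreated, MSC-CM, ACS and PRP lysate. IL-1ß and untreated macrophages overlapped, as did ACS and PRP lysate, whereas untreated, MSC-CM and ACS libraries were apart from one to the next.

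Direct comparison of the OTs called no difference in IL6. PRP lysate lay below MSC-CM by -1.42 on the log2 scale (95% interval -2.52 to -0.32, limma adjusted p = 0.171), and this was -0.67 (limma adjusted p = 0.162) without IL-1ß replicate 3 and PRP lysate replicate 1. ACS lay below MSC-CM by -0.98 (-2.08 to 0.11, limma adjusted p = 0.433). Without both libraries the same difference had a limma adjusted p = 0.0305 and stayed short of 2-fold. PRP lysate and ACS differed by -0.44 (-1.53 to 0.66, limma adjusted p = 0.842), and this value was 0.32 without PRP lysate replicate 1. The intervals are wide enough to hold differences over 2-fold, so the products were not shown to act alike.

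Levels with PRP lysate were also below those of macrophages never exposed to IL-1ß, by -2.20 on the log2 scale (95% interval -3.30 to -1.11, limma adjusted p = 0.0367). That call was made in 8 of 16 alternative fits (adjusted p from 0.00218 to 0.224, limma, edgeR or DESeq2) and was lost without any 1 of the 3 untreated libraries, where the adjusted p reached 0.167. Leaving out both IL-1ß replicate 3 and PRP lysate replicate 1 gave -1.45 (limma adjusted p = 0.0142). Against untreated macrophages IL6 differed by -1.77 with ACS (limma adjusted p = 0.239) and by -0.78 with MSC-CM (limma adjusted p = 0.525), and both sets of libraries lay below all untreated ones.

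LIF (ENSECAG00000030554, chromosome 8, 8935436 to 8938555) encodes leukemia inhibitory factor. With IL-1ß it stood at 28.4, 20.6 and 7.23 CPM, and untreated macrophages held 20.4, 27.8 and 24.3 CPM. It reached 22.0, 49.6 and 50.3 CPM with PRP lysate and 39.3, 45.8 and 42.1 CPM with ACS. MSC-CM libraries held 28.6, 32.1 and 19.8 CPM. ACS libraries thus lay above all IL-1ß, untreated and MSC-CM libraries, while PRP lysate replicate 1 fell within the range of those 3 conditions.

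Against IL-1ß the log2 fold change of LIF was 1.32 with ACS (95% interval 0.43 to 2.21, limma adjusted p = 0.104), 1.17 with PRP lysate (0.28 to 2.06, limma adjusted p = 0.140) and 0.66 with MSC-CM (-0.23 to 1.54, limma adjusted p = 0.705). None was called. The MSC-CM value was 0.12 without IL-1ß replicate 3, alone or together with PRP lysate replicate 1. The PRP lysate difference was called in 4 of 16 alternative fits, with adjusted p-values from 0.0104 to 0.734 over all of them (limma, edgeR or DESeq2). Among these it was 1.02 without IL-1ß replicate 3 and PRP lysate replicate 1 (limma adjusted p = 0.0104), 1.55 without PRP lysate replicate 1 alone (limma adjusted p = 0.0396), and 0.63 without IL-1ß replicate 3 alone, which was not called. With ACS, called in 2 of 14 fits, the value without both libraries was 0.78 (limma adjusted p = 0.0361), which is under 2-fold. DESeq2 on recovered reads called LIF higher with both OTs, with adjusted p-values of 0.0440 for PRP lysate and 0.0357 for ACS.

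IL11 (ENSECAG00000014511, chromosome 10, 24968790 to 24972751) encodes a cytokine known for its part in fibrosis and bone turnover. Its levels were low throughout. Untreated macrophages held 1.69, 4.71 and 4.51 CPM, and IL-1ß macrophages held 2.36, 1.16 and 0.207 CPM. MSC-CM libraries held 1.29, 2.39 and 1.99 CPM, PRP lysate libraries 1.85, 1.98 and 1.44 CPM, and ACS libraries 2.21, 5.16 and 6.20 CPM. Only ACS and untreated libraries exceeded 4 CPM, yet each of these conditions also had a library within the range of IL-1ß.

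For IL11 the log2 fold change was -1.09 between IL-1ß and untreated macrophages (95% interval -1.96 to -0.22, limma adjusted p = 0.277) and 1.34 between ACS and IL-1ß (0.47 to 2.21, limma adjusted p = 0.0952). Neither was called, and without IL-1ß replicate 3 and PRP lysate replicate 1 they shrank to -0.70 and 0.95. DESeq2 called the ACS difference (1.81, adjusted p = 0.0381). PRP lysate libraries all lay below ACS libraries, with a log2 fold change of -0.92 (limma adjusted p = 0.842).

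**Figure D2:**
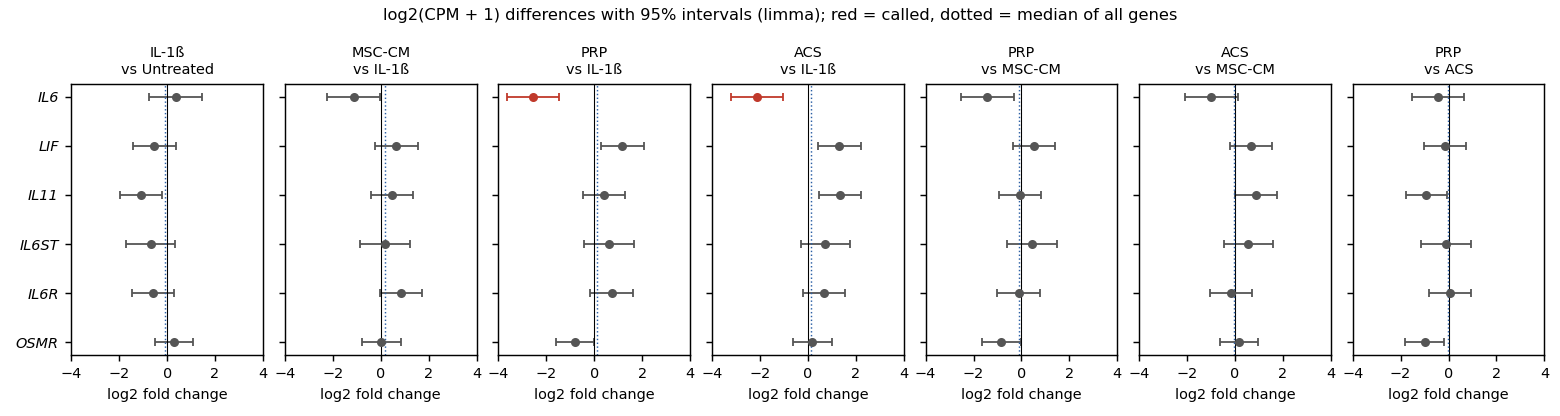
Log2 fold change of the 6 tested genes, with 95% intervals from limma (x axes, log2(CPM + 1) scale), in 7 comparisons named first against second. Red marks the calls, which in these comparisons were IL6 with PRP lysate (-2.55) and with ACS (-2.12) against IL-1ß, and the dotted line is the median of all genes tested.

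The receptor genes came next. IL6R (ENSECAG00000024047, chromosome 5, 39930275 to 39980022) encodes the chain that binds IL-6 itself and that immune cells and hepatocytes carry. It ranged from 9.73 to 14.0 CPM in untreated macrophages and from 9.71 to 13.9 CPM with ACS. IL-1ß macrophages held 10.1, 10.1 and 3.25 CPM. MSC-CM libraries held 11.1, 17.3 and 12.7 CPM, all above the IL-1ß libraries, and PRP lysate libraries spread from 6.42 to 20.7 CPM. The log2 fold changes against IL-1ß were 0.84 for MSC-CM (limma adjusted p = 0.705), 0.72 for PRP lysate (limma adjusted p = 0.399) and 0.66 for ACS (limma adjusted p = 0.316). Without IL-1ß replicate 3 and PRP lysate replicate 1 they were 0.38, 0.68 and 0.20.

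IL6ST (ENSECAG00000019750, chromosome 21, 17017524 to 17075780) encodes the shared signal transducer gp130. Untreated macrophages held 54.1, 80.8 and 50.9 CPM, and IL-1ß macrophages held 60.0, 39.98 and 21.2 CPM. The ACS libraries lay close together at 59.3, 64.6 and 63.4 CPM, whereas those of PRP lysate held 23.0, 84.5 and 96.8 CPM. In MSC-CM they were 28.7, 51.1 and 50.4 CPM, all below ACS. Against IL-1ß, ACS gave 0.73 on the log2 scale (95% interval -0.30 to 1.77, limma adjusted p = 0.334), which was 0.34 without both libraries that stood apart (limma adjusted p = 0.517). PRP lysate gave 0.62 (limma adjusted p = 0.561), and 0.87 without both (limma adjusted p = 0.0716). Between PRP lysate and MSC-CM the log2 fold change was 0.45 (limma adjusted p = 0.829), and it was 1.09 without IL-1ß replicate 3 and PRP lysate replicate 1 (limma adjusted p = 0.0110), the sole setting in which a receptor chain was called.

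OSMR (ENSECAG00000019438, chromosome 21, 27514499 to 27573004), which pairs with gp130 to bind oncostatin M, had few reads. It stood at 1.23, 2.16 and 0.932 CPM in untreated macrophages and at 3.78, 2.06 and 0.692 CPM with IL-1ß. PRP lysate libraries held 0, 1.08 and 1.23 CPM, below all MSC-CM (1.65 to 2.31 CPM) and all ACS libraries (1.75 to 2.67 CPM). No read was counted in PRP lysate replicate 1, where 3 reads would amount to 0.0806 CPM. The log2 fold change of PRP lysate was -0.83 against MSC-CM (limma adjusted p = 0.317), -0.996 against ACS (limma adjusted p = 0.779) and -0.81 against IL-1ß (limma adjusted p = 0.285). None passed. Without IL-1ß replicate 3 and PRP lysate replicate 1 the values were -0.47 (limma adjusted p = 0.249), -0.63 (0.495) and -0.83 (0.0916) in turn.

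LIFR (ENSECAG00000020208, chromosome 21, 27807084 to 27876182) lies 234.1 kb from OSMR and encodes the chain through which LIF acts. It was close to undetected. The untreated libraries together had 22 reads, a pooled level of 0.204 CPM (exact Poisson 95% interval 0.127 to 0.308 CPM), at 0.179, 0.140 and 0.301 CPM in replicates 1 to 3. IL-1ß libraries had 0 reads in all 3, and taking 3 reads over the condition as the floor put them at least 6.80-fold lower than the pooled untreated level. That bound leaves out the counting error of the untreated level, and the exact Poisson 95% interval of the IL-1ß libraries reached 0.0368 CPM. MSC-CM libraries had 8 reads, and PRP lysate and ACS libraries had 2 each. These intervals and floors cover counting error only. In a fit without the filter on low values LIFR was not called between IL-1ß and untreated macrophages (limma adjusted p = 0.112).

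The number of these genes that passed can be read against all 11628 genes tested. Between IL-1ß and untreated macrophages limma called 0 of 6, where 0.292% of all genes were called. IL11 alone had an unadjusted p-value under 0.05, beside 13% of all genes. edgeR and DESeq2 also called 0, and 0 of 6 had groups that did not overlap, beside 16.2% of all genes. With MSC-CM against IL-1ß 0 of 6 were called by limma, edgeR and DESeq2, and limma called 0% of all genes. IL6 alone had an unadjusted p-value under 0.05, beside 5.6% of all genes. IL6 and IL6R did not overlap between MSC-CM and IL-1ß, as held for 8.79% of all genes.

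With PRP lysate against IL-1ß, 1 of 6 was called (IL6), where the share of all genes was 3.09%, and 1 did not overlap between the groups, where the share was 15%. With ACS against IL-1ß, 1 of 6 was called (IL6) beside 2.21% of all genes, and IL6 and LIF did not overlap, beside 26.2%. The median log2 fold change of the 6 genes against IL-1ß was 0.32 for MSC-CM, 0.52 for PRP lysate and 0.70 for ACS, and it was -0.07, 0.34 and 0.27 without both libraries that stood apart. All genes tested had medians of 0.16, 0.11 and 0.13 in these comparisons, which went to 0.00, 0.02 and 0.02 under RLE size factors, so values against IL-1ß carry a shift of that size. The 3 comparisons share the IL-1ß libraries.

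Between OTs limma called 0 of 6 genes for PRP lysate against MSC-CM (2.61% of all genes), 0 of 6 for ACS against MSC-CM (1.23%) and 0 of 6 for PRP lysate against ACS (0.0946%), and edgeR and DESeq2 likewise called 0 in each. Unadjusted limma p-values under 0.05 were found for 2, 1 and 2 of the 6, beside 14.5%, 13.5% and 5.19% of all genes. Groups did not overlap for IL6 and OSMR in the first of these (19.4% of all genes), for IL6, IL6ST and LIF in the second (35.1%), and for OSMR and IL11 in the last (15.6%). Against untreated macrophages 0 of 6 were called with MSC-CM (0.662% of all genes), and edgeR and DESeq2 also called 0. There 0 of 6 passed at an unadjusted p-value, beside 15.7% of all genes. PRP lysate had 1 of 6 called, IL6 (1.6% of all genes), and ACS had 0 of 6 (0.37%), with 1 at an unadjusted p-value (7.65% of all genes), 0 by edgeR and 1 by DESeq2. The groups did not overlap for IL6 with MSC-CM (30.8%), for IL6 with PRP lysate (18.6%), and for IL6 and LIF with ACS (26.3%).

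IL6 and LIF were then set against each other within each library, as the ratio of their CPM, a measure chosen after their values were seen. The ratio does not count molecules, since the transcripts may differ in length, but it cancels the scaling of a library. Untreated libraries had 0.595, 0.576 and 0.752 LIF per IL6, and IL-1ß libraries had 0.475, 0.440 and 0.179. MSC-CM libraries had 1.21, 1.69 and 0.894, PRP lysate libraries had 11.2, 3.98 and 3.61, and ACS libraries had 2.24, 4.42 and 7.003. Every pair of these conditions that was compared was apart except PRP lysate and ACS. Geometric means exceeded that of IL-1ß by 3.65-fold for MSC-CM, 16.3-fold for PRP lysate and 12.3-fold for ACS. The exact two-sided permutation test gave p = 0.1 for each, the smallest that 3 libraries against 3 allow, and 0.2 after Benjamini-Hochberg adjustment over the 14 ratio tests made. The PRP lysate difference was 4.02 on the log2 scale, and 3.05 without IL-1ß replicate 3 and PRP lysate replicate 1.

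**Figure D3:**
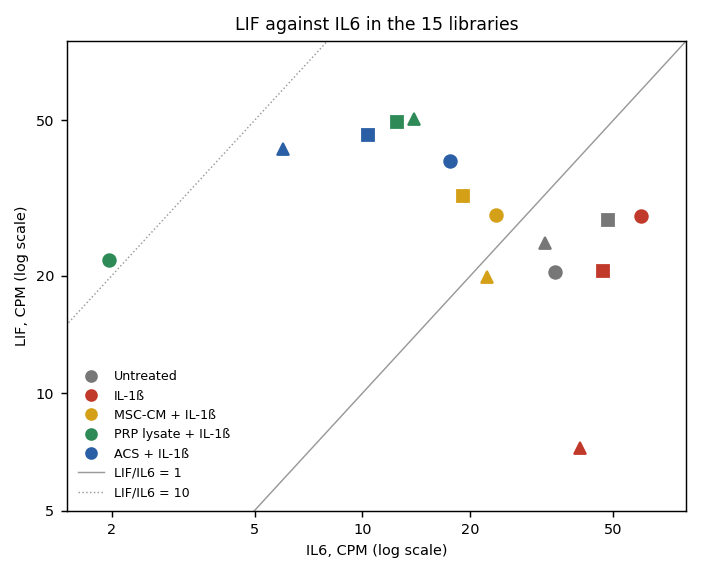
LIF against IL6 in each library, both in CPM on log axes. Colours are conditions, marker shapes are replicates, and lines mark equal and 10-fold LIF per IL6. All PRP lysate and ACS libraries lie to the left of the IL-1ß and untreated libraries and have more LIF per IL6, at 2.24 to 11.2 LIF per IL6 against 0.179 to 0.752.

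The receptor pair gave a steadier ratio. IL6ST per IL6R was 5.56, 5.76 and 4.98 in untreated macrophages and 5.91, 3.95 and 6.51 with IL-1ß. MSC-CM libraries had 2.57, 2.96 and 3.97, PRP lysate libraries 3.58, 6.18 and 4.68, and ACS libraries 4.27, 5.37 and 6.53. Only ACS and MSC-CM were apart among the 7 pairs compared (1.70-fold, exact permutation test, two-sided p = 0.1, adjusted p = 0.2). In IL-1ß replicate 3 both receptor genes were low, at 3.25 and 21.2 CPM, and their ratio of 6.51 was the highest of that condition.

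Across the 15 libraries, which share conditions, IL6R went with LIF (Pearson r = 0.80 of log2(CPM + 1)) and with IL6ST (r = 0.79), while IL6 and LIF had r = -0.39 and IL6 and IL6ST r = 0.08. Without IL-1ß replicate 3 and PRP lysate replicate 1, at 13 libraries, r was 0.50 for IL6R with LIF, 0.51 for IL6R with IL6ST, -0.74 for IL6 with LIF and -0.29 for IL6 with IL6ST, so the last changed its sign.

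The genes most like IL6 over the 15 libraries were PLOD1, a lysyl hydroxylase of collagen (r = 0.946), LRRC25 (0.944) and TNFAIP6, a hyaluronan-binding protein made in inflammation (0.938). Most like IL6ST were TMEM26 (0.975), ENSECAG00000003466 (0.972) and PIK3R1, a regulatory subunit of PI3 kinase (0.967). For LIF they were BMS1, ST6GAL1 and ABHD1 (each 0.957), and for IL6R ING5 (0.948), ZNF518A (0.945) and TMEM248 (0.941). OSMR was closest to MFSD4B (0.968), GGCX (0.943) and KLF3 (0.921), and IL11 to SUFU (0.927), ENSECAG00000035596 (0.920) and ENSECAG00000010201 (0.913). These r values are descriptions over libraries that share conditions and the 2 libraries that stood apart. Without those, r of the 18 genes ran from 0.788 (TMEM248 and KLF3) to 0.959 (TMEM26), and their ranks ran from 2 to 41, the last being KLF3 with OSMR. By Spearman's rho over all 15 libraries they ranked from 1 to 187, with PIK3R1 at 151.

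Other genes of the pathway were taken from 5 lists, of which 49 genes are described. Between IL-1ß and untreated macrophages limma called 1 of them, edgeR 1 and DESeq2 4, beside 0.292% of all genes with limma. Of the 11628 genes edgeR called 29 there and DESeq2 164. For MSC-CM against IL-1ß all 3 tools called 0 (2 at an unadjusted p-value, beside 5.6% of all genes), and limma called 0% of all genes. For PRP lysate limma called 2, edgeR 1 and DESeq2 5, beside 3.09% of all genes with limma, 385 of the 11628 with edgeR and 572 with DESeq2. For ACS limma called 2, edgeR 1 and DESeq2 2, beside 2.21% of all genes with limma, 254 of the 11628 with edgeR and 502 with DESeq2. Without IL-1ß replicate 3 and PRP lysate replicate 1 limma called 3 of the 49 between IL-1ß and untreated macrophages (0.783% of all genes), 0 for MSC-CM, 6 for PRP lysate (4.41%) and 3 for ACS (2.63%). Those gained for PRP lysate included VEGFA, an angiogenic factor (-1.33, limma adjusted p = 0.00370), EBI3 (-1.02) and IL31 (2.31), named here after their values were seen.

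Of the 12 kinases, STAT factors and adaptors described, limma, edgeR and DESeq2 called 0 in each comparison with IL-1ß. With MSC-CM, PRP lysate and ACS in turn, 0, 0 and 1 had an unadjusted p-value under 0.05, beside 5.6%, 17.5% and 20.5% of all genes. STAT3 itself was at 191 CPM with IL-1ß, 201 with PRP lysate and 266 with ACS (log2 fold change 0.64, limma adjusted p = 0.278). The IL-1ß libraries ran from 83.6 to 274 CPM, and without both libraries that stood apart the ACS value was 0.13 (limma adjusted p = 0.694). The medians of these 12 genes were 0.49, 0.16 and 0.48 for the same OTs, next to 0.16, 0.11 and 0.13 for all genes. Without both they were 0.0087, -0.13 and -0.0008, next to 0.05, 0.02 and 0.01.

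Among 6 other ligands of the family, IL27, the subunit that joins EBI3 to form interleukin-27, fell with PRP lysate from 26.5 ± 7.05 to 10.5 ± 4.75 CPM (log2 fold change -1.33, limma adjusted p = 0.0486). That call was kept in only 4 of 16 alternative fits, and without both libraries that stood apart the value was -0.74 (limma adjusted p = 0.168). EBI3 was at 18.3 CPM with IL-1ß, 10.7 with PRP lysate (limma adjusted p = 0.0631) and 10.5 with ACS (limma adjusted p = 0.0748), with both OTs below every IL-1ß library. CLCF1, a cytokine that acts through the CNTF receptor, was at 8.43 CPM with IL-1ß, 22.7 with PRP lysate (log2 fold change 1.30, limma adjusted p = 0.0773) and 23.97 with ACS (1.34, limma adjusted p = 0.0779), with both OTs above every IL-1ß library. Without both libraries that stood apart these were 0.97 (limma adjusted p = 0.204) and 1.24 (limma adjusted p = 0.0870). DESeq2 called 3 of the 6 ligands with PRP lysate (CLCF1, IL27 and IL31) and 1 with ACS (CLCF1), and edgeR called 0. The medians of the 6 ligands were -0.17 with PRP lysate and -0.10 with ACS, and -0.31 and -0.11 without both. Of 2 other receptors tested, CSF3R, the receptor of G-CSF, rose with ACS from 340 to 653 CPM (log2 fold change 0.93, limma adjusted p = 0.0143), short of 2-fold. It passed the adjusted p-value in 7 of 14 alternative fits and was called in 3 of them, 1 being the fit without both libraries (1.03, limma adjusted p = 0.00522).

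No gene of the 10 for feedback and receptor shedding reached a 2-fold change in a comparison with IL-1ß. limma found unadjusted p-values under 0.05 for 1, 3 and 2 of them in MSC-CM, PRP lysate and ACS libraries, beside 5.6%, 17.5% and 20.5% of all genes. edgeR and DESeq2 called 0 in each. CISH, a SOCS family inhibitor, passed the adjusted p-value with PRP lysate (0.83, limma adjusted p = 0.00715) and with ACS (0.72, limma adjusted p = 0.0242). It passed in 14 of 16 alternative fits for PRP lysate and in only 5 of 14 for ACS. Without a fold threshold 4.94% of all genes passed with PRP lysate and 3.45% with ACS. SOCS3, which binds gp130 and blocks its signal, was at 163 CPM with IL-1ß, 202 with PRP lysate (limma adjusted p = 0.482) and 211 with ACS (limma adjusted p = 0.271).

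In the list of 19 genes that respond to STAT3 or IL-6, the members that moved did not go one way. CEBPD, a transcription factor of the acute phase response, was 9.14 ± 1.04 CPM in untreated macrophages, 47.4 ± 4.19 with IL-1ß, 41.98 ± 10.4 in MSC-CM libraries, 6.67 ± 1.503 in PRP lysate libraries and 8.16 ± 0.208 in ACS libraries. It was called higher with IL-1ß than in untreated macrophages (2.26, limma adjusted p = 0.000228) and lower than IL-1ß with PRP lysate (-2.67, limma adjusted p = 9.87e-06) and ACS (-2.40, limma adjusted p = 7.72e-05). It also differed between both of these OTs and MSC-CM (-2.47 and -2.20, limma adjusted p = 2.52e-05 and 0.000293). ICAM1, an adhesion molecule, rose with ACS from 728 to 1470 CPM (1.01, limma adjusted p = 0.00222), which under RLE size factors was 0.89 and without both libraries that stood apart 0.93. With PRP lysate ICAM1 (0.79), PIM1 (0.83), MYC (0.69) and BCL2L1 (0.62) passed the adjusted p-value under 2-fold, and with ACS BCL2L1 (0.71) did. Over the alternative fits for PRP lysate ICAM1 passed in 15 of 16, PIM1 in 14, BCL2L1 in 10 and MYC in 6. For ACS ICAM1 passed the adjusted p-value in 13 of 14 and BCL2L1 in 10, but the 2-fold call of ICAM1 was kept in only 6 of 14. List medians were 0.15 with PRP lysate and 0.19 with ACS, next to 0.11 and 0.13 for all genes, and 0.06 and 0.12 without both, next to 0.02 and 0.01.

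**Figure D4:**
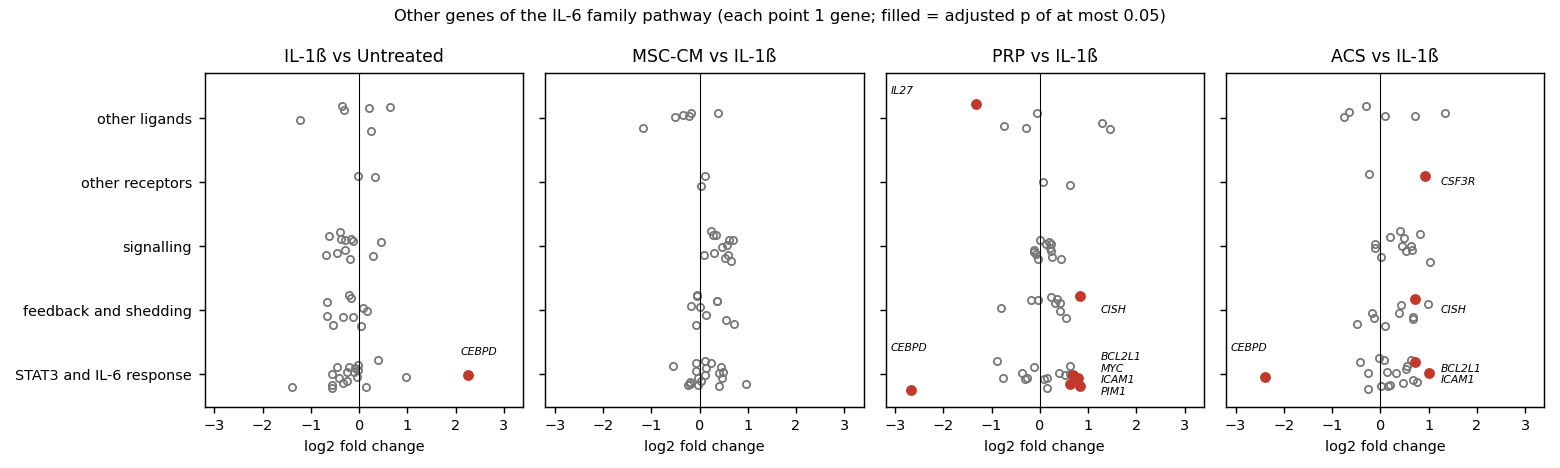
Log2 fold change (x axes, log2(CPM + 1) scale) of 49 other genes of the IL-6 family pathway, in 5 rows by list, for 4 comparisons. Each point is 1 gene, filled red and named where the adjusted p-value was at most 0.05. CEBPD is higher with IL-1ß than untreated (2.26) and lower with PRP lysate (-2.67) and ACS (-2.40) than with IL-1ß, while the signalling and feedback genes lie mostly within 1 log2 unit of 0.

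Some cell type markers differed from IL-1ß in PRP lysate and ACS libraries. Between IL-1ß and untreated macrophages 3 of 29 markers tested were called. With IL-1ß PPBP of platelets (2.12, limma adjusted p = 0.0471) and FLT3 of dendritic cells (1.06, 0.0494) were higher, and CDH5 of endothelial cells was lower (-1.78, 0.0493). The 8 macrophage markers summed to between 3403 and 6444 CPM with IL-1ß, 4331 and 5302 with MSC-CM, 2029 and 4234 with PRP lysate, and 3652 and 4894 with ACS. CD163, a scavenger receptor of macrophages, averaged 563 CPM with IL-1ß, 481 for MSC-CM, 11.4 for PRP lysate and 64.6 for ACS, while CD68 was at 1630, 1430, 1660 and 1631 CPM. The 3 neutrophil markers listed, chiefly CSF3R, which is also among the receptors above, summed to between 309 and 391 CPM with IL-1ß, 268 and 430 for MSC-CM, 485 and 546 with PRP lysate, and 530 and 759 with ACS. MPO went the other way, at 2.02 CPM with IL-1ß, 0.775 for MSC-CM, 0.0159 for PRP lysate and 0.126 for ACS. ELANE averaged 0.0471 CPM with IL-1ß, 0.128 for PRP lysate and 0.160 for ACS. Both were too low to test. The 5 endothelial markers summed to between 253 and 518 CPM with IL-1ß, 192 and 407 for MSC-CM, 63.1 and 103 with PRP lysate, and 119 and 153 with ACS. Most of that sum was PECAM1, at 399.8 CPM with IL-1ß, 63.7 with PRP lysate and 110.1 with ACS. CDH5, at 2.04, 6.13 and 2.44 CPM, and TEK, at 10.9, 18.4 and 20.8 CPM, did not pass the test in these 2 OTs, though CDH5 was called higher with PRP lysate without both libraries that stood apart (1.53, limma adjusted p = 0.00404). T cell markers spanned 701 to 1389 CPM with IL-1ß, 981 to 1063 for MSC-CM, 619 to 1441 with PRP lysate and 597 to 758 with ACS. Sums ran from 126 to 804 CPM for NK cell, 145 to 343 for dendritic cell and 0 to 2.92 for stromal markers over all libraries. NK cell markers summed to between 168 and 459 CPM with IL-1ß, 215 and 269 for MSC-CM, 254 and 804 with PRP lysate, and 200 and 327 with ACS. The 3 B cell markers listed summed to between 23.1 and 47.6 CPM with IL-1ß, 20.5 and 28.4 for MSC-CM, 10.7 and 28.2 for PRP lysate, and 11.9 and 17.8 for ACS. The 4 platelet markers listed summed to between 11.6 and 13.8 CPM with IL-1ß, 6.35 and 8.50 for MSC-CM, 12.2 and 41.2 for PRP lysate, and 10.8 and 17.7 for ACS. The dendritic cell sum was nearly all CCR7, at 181 CPM with IL-1ß, while FLT3, a receptor of dendritic cells and their progenitors, averaged 4.50 CPM with IL-1ß, 3.61 for MSC-CM, 0.951 for PRP lysate and 2.53 for ACS. Of 29 markers tested, CD163, PECAM1 and FLT3 were called lower with PRP lysate against IL-1ß (FLT3 -1.52, limma adjusted p = 0.000718), and CD163 and PECAM1 with ACS (FLT3 -0.63, limma adjusted p = 0.117, with the groups apart). Without both libraries that stood apart 8 markers were called with PRP lysate and 4 with ACS. With PRP lysate these included CD79A of B cells (-1.30, limma adjusted p = 0.0169), NCR1 of NK cells (-1.11, 0.0212), ADGRE1 of macrophages (-2.10, 0.00164) and PPBP of platelets (1.52, 0.00971), and with ACS ADGRE1 (-1.73, limma adjusted p = 0.00522). NK cell markers other than NCR1 were not called with PRP lysate, at 0.78 for GNLY, 0.55 for NKG7 and -0.29 for KLRF1 over all libraries. The part of the cell type markers in the fall of IL6 and in the levels of LIF was not tested.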

How the data were processed

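Polyadenylated RNA of 15 libraries in 5 conditions was measured. The authors trimmed reads with cutadapt, aligned them to EquCab3.0 with STAR 2.7.3 and, in Partek Flow, used HTSeq for the counts per gene and deposited CPM for 16932 protein-coding genes. The strand setting of the counting is not given in the sources used here, so overlapping and antisense genes are uncertain. The listed values sum to between 982495 and 991421 CPM per library. Gene levels were not compared between genes, as no transcript lengths were used here.

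The IL-6 family genes and the lists were chosen with earlier results of these data known. limma 3.58.1 (R 4.3.3) with an intensity trend was fitted to log2(CPM + 1) of 11628 genes averaging 1 CPM or more, with 5 conditions in 1 model of all 15 libraries and no block. MSC-CM and PRP lysate came from the same 3 horses, and deviations of their same-numbered libraries over all genes had r = 0.635, 0.255 and 0.419. Libraries of different number reached similar values, at 0.388 for MSC-CM replicate 2 with PRP lysate replicate 3. MSC-CM replicate 3 with PRP lysate replicate 2 had 0.47. Equal numbers were thus not shown to mean the same horse, and a fit as pairs was made in case they do. Benjamini-Hochberg adjustment was over all genes of a comparison, and 10 comparisons were made. Calls needed a 2-fold change and an adjusted p-value no higher than 0.05. Named genes are the family members, the list genes called in a comparison with IL-1ß or between IL-1ß and untreated macrophages, and the 3 genes with the highest Pearson r to each member. STAT3, SOCS3, EBI3, CLCF1 and the genes that passed under 2-fold were named after their values were seen.

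The step between the low values of a library gave what 1 read was worth, and 100% of values came out as whole reads (within 0.05 reads, or within the printed digits of large values). On these reads edgeR 4.0.16 called 385 genes for PRP lysate against IL-1ß and 254 for ACS, where limma called 359 and 257. DESeq2 1.42.0 was also run. Other alternatives were a pseudocount of 0.1, no filter on low values, RLE size factors, TMM factors, only the 2 conditions compared, a replicate block, no fold threshold, and leaving out libraries. On simulated data limma recovered 100% of 57 genes changed 4-fold among 11628 for PRP lysate against IL-1ß, with 5 unchanged genes passing. Recovery at the spread of the family genes in the real libraries, such as 9.45 ± 6.53 CPM (SD, n = 3) for IL6 with PRP lysate, was not tested. Of the names on the lists, CNTF, IL11RA, BCL3, FCGR1A, HP, CD79B, CXCR2, PF4, COL3A1 and OSM were not analysed here. CNTFR, IL31RA, HAMP and LBP were too low to test. The result of 1 listed signalling gene is not reported here, and counts and medians leave it out.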

Additional observations from a re-analysis of the deposited data

How the results depend on the processing

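Over 28 alternative settings no called difference of an IL-6 family gene turned its direction. Of 924 values recomputed for single genes, 895 stayed on their side of the threshold, 16 lost a call, 13 gained one, and 54 uncalled values changed sign. The number of family genes called with PRP lysate against IL-1ß, 1 in the report, was 2 with DESeq2 and 2 without IL-1ß replicate 3 and PRP lysate replicate 1 together (IL6 and LIF), 0 when only the 2 conditions were fitted, and 1 to 2 when single libraries were left out. With ACS against IL-1ß, also 1, it was 0 with a pseudocount of 0.1, 0 without the filter, 0 when only the 2 conditions were fitted, 3 with DESeq2 (IL6, LIF and IL11), and 0 to 3 when single libraries were left out, the 3 arising without IL-1ß replicate 1. Against untreated macrophages the 1 call with PRP lysate went to 0 without the filter, 0 with edgeR, 0 when only the 2 conditions were fitted, and 2 without both libraries, with a range of 0 to 1 when single libraries were left out. With ACS the 0 calls against untreated became 1 with DESeq2, 1 when only the 2 conditions were fitted and 1 without both libraries. PRP lysate against MSC-CM went from 0 to 1 without both libraries (IL6ST). In the other 5 comparisons the count stayed at 0 under each alternative. Neither IL-1ß replicate 3 nor PRP lysate replicate 1 is in the comparison of ACS with untreated macrophages. Without them the IL6 log2 fold change there stayed at -1.77, and only the shared estimate of spread and the adjustment differed. What caused the other shifts was not tested. Over all conditions the same-numbered libraries did not deviate together in every pair (18 pairs, median r 0.319, from -0.775 to 0.635, 11 above 0.1, and 2 of 12 libraries closest to their own number), so the numbers were not taken as pairs there. Between MSC-CM and PRP lysate, libraries of different number reached 0.388 and 0.47, so equal numbers were not shown to mean the same horse. All 3 same-numbered pairs of these OTs were above 0.1. A replicate block of these pairs, added after seeing the data, changed no call of a family gene between them (IL6, limma adjusted p = 0.139 within all 15 libraries and 0.105 with the 6 alone, where 406 genes of all were called against 167 with no block). A replicate block over the 12 libraries without ACS kept IL6 called with PRP lysate against IL-1ß (limma adjusted p = 0.0453) and gave 0 calls against untreated macrophages (IL6, limma adjusted p = 0.126), as did the same libraries with no block (0 calls, adjusted p = 0.0584). Depth limits LIFR, with at most 10 reads in a library, and OSMR. Groups of 3 libraries cannot reach a permutation p-value under 0.1.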

Other observations

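IL31, a cytokine of T cells that signals through OSMR and its own receptor chain instead of gp130, averaged 1.99 ± 1.04 CPM (SD, n = 3) in IL-1ß macrophages and 0.883 ± 0.429 in untreated ones. The mean was 0.290 ± 0.161 for MSC-CM, 10.03 ± 8.38 for PRP lysate and 4.05 ± 2.21 for ACS. Its PRP lysate libraries spread from 1.21 to 17.9 CPM, and against IL-1ß the log2 fold change of 1.46 did not pass (limma adjusted p = 0.216). Against MSC-CM it was 2.63 higher with PRP lysate on the log2 scale (limma adjusted p = 0.0250) and 1.89 higher with ACS (limma adjusted p = 0.152). Without IL-1ß replicate 3 and PRP lysate replicate 1 IL31 was called in both. It was 3.55 with PRP lysate (limma adjusted p = 4.8e-05) and 1.89 with ACS (limma adjusted p = 0.00226). The ACS value was unchanged, as neither library is of ACS or MSC-CM, and only the shared estimate of spread and the adjustment differed. With PRP lysate against IL-1ß it was 2.31 (limma adjusted p = 0.00240). All PRP lysate and ACS libraries lay above all MSC-CM libraries. Its receptor chain IL31RA averaged between 0.113 and 0.388 CPM over the 5 conditions, too low to test. IL31 was named after its values were seen, and the part of the T cell markers in its level was not tested.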
